A study of Rattus norvegicus with 134 samples.

Results

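Kidney microRNA (miRNA) was compared between heat-stressed and control rats 24 h after the heat. By tissue, treatment and time in the sample labels, 10 of the 77 libraries of the table belonged to this comparison, 6 kidneys of heat-stressed rats (rats 297 to 302) and 4 kidneys of control rats (rats 290, 321, 322 and 323). All 185 miRNA names of the table were examined in them. The study followed heart, kidney, liver and lung of conscious rats at the highest core temperature reached, T_c,max, and at 24 and 48 h, with controls for each time point. Heat-stressed rats had been moved into an incubator 24 h ahead, were warmed there at 37.0 °C until the core temperature reached 41.8 °C, and then recovered in cages at 22 °C. The sources differ on the controls. The labels keep them out of the incubator, in which case heat and the stay there cannot be told apart, whereas the study's methods put them in one at room temperature. Each library was small RNA of a piece of whole kidney from 1 rat, which mixes tubule, glomerulus, vessel and blood. In such tissue, fewer cells of a type and less RNA per cell cannot be told apart. The question was which kidney miRNA differed a day after heat stress.

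A miRNA is cut from a hairpin precursor, and either of its arms (5p or 3p) can be loaded into the silencing complex, which pairs with messenger RNA mainly through the seed, bases 2 to 8. In the kidney, miR-192, miR-194 and the miR-10 and miR-30 families are known as abundant in tubule or glomerulus, the miR-200 family as a mark of epithelium, and miR-126 as endothelial. miR-21 and miR-146 are known from kidney injury and inflammation. Of the names, 105 gave an arm and 80 did not. RefSeq lists 18 of these 80 as mature miRNA under the same name. For the others the sources used here do not say whether they count an arm or the hairpin. Some, such as let-7c-1 and let-7c-2, carry a number for the gene copy and stand beside a name with an arm (let-7c-5p).

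The sequences below are those of the miRNA with the smallest p-values or the widest spread between rats, with the seed in capitals, from RefSeq (GRCr8). miR-21, the mark of tissue injury, and miR-146b-5p, a regulator of inflammatory signalling, had the smallest p-values among names with higher averages in heat-stressed kidneys. miR-146a-5p is shown because it shares the seed of miR-146b-5p. miR-3591 is shown because all of its 20 bases are the reverse complement of miR-122-5p, the liver miRNA.
miR-21-5p: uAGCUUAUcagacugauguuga
miR-21-3p: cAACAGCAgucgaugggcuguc
miR-146b-5p: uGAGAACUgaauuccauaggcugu
miR-146a-5p: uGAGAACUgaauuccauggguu
miR-126a-3p: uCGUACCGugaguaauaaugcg
miR-126a-5p: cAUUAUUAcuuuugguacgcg
miR-182: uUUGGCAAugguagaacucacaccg
miR-192-5p: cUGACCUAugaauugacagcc
miR-205: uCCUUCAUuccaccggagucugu
miR-31a-5p: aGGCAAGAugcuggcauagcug
miR-142-5p: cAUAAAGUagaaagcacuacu
miR-122-5p: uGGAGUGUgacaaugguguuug
miR-3591: aACACCAUugucacacucca

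The table had 3 names for miR-21, and the precursor shows how its arms lie, here in capitals.
Mir21 hairpin: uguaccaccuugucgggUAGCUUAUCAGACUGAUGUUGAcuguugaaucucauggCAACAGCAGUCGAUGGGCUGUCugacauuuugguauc

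In GRCr8 the Mir21 hairpin lies on the minus strand at chr10:71902600-71902691, with miR-21-5p at chr10:71902653-71902674 and miR-21-3p at chr10:71902615-71902636. miR-146b-5p lies on the plus strand at chr1:255144874-255144897, and miR-146a-5p on the minus strand of another chromosome at chr10:28350053-28350074. miR-205 lies on the minus strand at chr13:107564588-107564610. miR-122-5p and miR-3591 come from opposite strands of 1 place, at chr18:61028831-61028852 on the plus strand and chr18:61028831-61028850 on the minus strand. RefSeq held a mature sequence for 108 of the 185 names.

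Total reads, recovered from the step that 1 read makes in each library, were 851546 to 2224067 in heat-stressed kidneys (median 1586775) and 1030754 to 1569315 in control kidneys (median 1123192). Rat 298 had the shallowest library and rat 302 the deepest. These were also the libraries farthest from their group mean, so values without them are given where they matter. Levels are given as CPM, the share of a library's reads scaled to a fixed total, or as log2(CPM + 1). The kidney epithelium markers summed to 243800 to 270900 CPM in heat-stressed and 255800 to 262300 CPM in control kidneys. Of the striated muscle markers, miR-1-3p was listed at 0 in all 10 libraries. Others were present, with 98 to 262 reads of miR-499-5p in heat-stressed and 103 to 250 in control kidneys. The striated muscle markers summed to 170.3 to 226.2 CPM in heat-stressed and 167.8 to 244.1 CPM in control kidneys. No library was a copy of another among the 10, since the chi-square per degree of freedom was at least 17.17 over all 45 pairs.

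No miRNA passed the test in the kidney at 24 h. limma, tested against a fold change of 25% (0.32 on the log2 scale, either way) at a false discovery rate of 0.05, called 0 of 175 names (0%), with a smallest adjusted p of 0.9998. With no fold-change cutoff it also called 0 (0%), with a smallest adjusted p of 0.932, and so did the exact permutation test. At an unadjusted p under 0.05, limma with no cutoff held 6 names (3.43%), limma with the cutoff held 0 and the exact permutation test 6. The 6 names were miR-146b-5p, miR-21, miR-126a-3p, miR-182 and miR-21-3p, with higher averages in heat-stressed rats (2.86% of names), and miR-192, with a lower one (0.571%). In no name were all heat-stressed kidneys above all controls (0%), or all below them (0%). The other 10 names had too few reads to be tested.

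Most differences were small. The median log2 fold change, heat-stressed minus control, was -0.03, and the median size of a change was 0.0871. Positive values had 74 names (42.3%) and negative values 101 (57.7%). Only 15 names differed by more than this cutoff on average, 8 with positive and 7 with negative values, and 4 by more than 2-fold, namely miR-205 (1.74), miR-122 (-1.64), miR-3591 (-1.59) and miR-122-5p (-1.14). Without rat 302, in which the last 3 had 0 or 1 read, these were -0.84 (miR-122), -0.77 (miR-3591) and -0.43 (miR-122-5p), and miR-205 was 1.28. The median of all names was -0.01 with median-ratio (RLE) or trimmed-mean scaling.

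The width of the intervals says what size of change these 10 rats leave room for. The 95% interval lay within the cutoff for 67 names (38.3%), within 1.5-fold for 143 (81.7%) and within 2-fold for 160 (91.4%). For the median name it reached 0.265 to either side on the log2 scale. The 15 names whose interval went past 2-fold were miR-205, miR-142-5p, miR-133a, miR-133a-3p, miR-451, miR-146b-5p, miR-21, miR-122-5p, miR-122, miR-3591, miR-34b-5p, let-7e, miR-31a-5p, miR-31a and miR-31b. Of these, miR-21 is abundant, whereas miR-133a, miR-133a-3p and miR-34b-5p had at most 31 reads in any library. A change of 2-fold in either direction thus lay outside the interval of most names, but not of these.

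**Figure D1:**
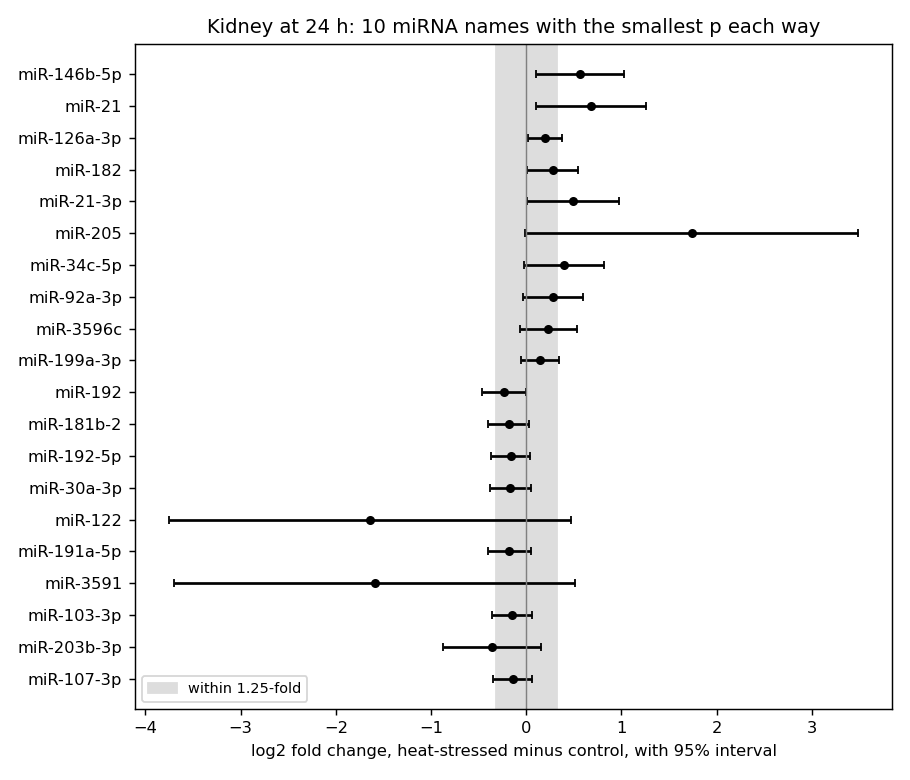
Log2 fold change (x axis, heat-stressed minus control) with its 95% interval from limma for the 10 miRNA names with the smallest p-value in each direction. Points are the estimates, bars the intervals and the grey band the fold-change cutoff. The intervals of miR-205, miR-122 and miR-3591 are the widest of those drawn, and most others stay within 1 log2 unit of 0.

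The most abundant miRNA included several of those known from kidney. miR-10b, a miRNA encoded within a Hox gene cluster, took 18.6% ± 1.72 of all reads in heat-stressed kidneys and 18.1% ± 0.391 in control kidneys (SD, n = 6 and 4). Its relative miR-10a-5p took 16.7% ± 1.24 in heat-stressed and 16.4% ± 1.33 in control kidneys. miR-22-3p, miR-192-5p, miR-30a, miR-26a-5p, miR-30a-5p, miR-143-3p, miR-30e and let-7f-5p completed the 10 most abundant names. Together these 10 held 68.89% to 71.7% of reads in heat-stressed and 69.87% to 70.44% in control libraries. These shares are of reads and not set per length. The log2 fold changes of the 10 lay between -0.16 (miR-192-5p, the tubular miRNA, 6 of 6 heat-stressed rats below the control mean) and 0.13 (miR-143-3p, a smooth muscle miRNA). These were -0.06 for miR-192-5p without control rat 322 and 0.02 for miR-143-3p without control rat 321. Those of miR-10b, miR-10a-5p, miR-22-3p, miR-26a-5p and let-7f-5p were between -0.05 and 0.04, which is less than the spread between rats. Except for miR-10b, the sign of these turned when single rats were left out. For miR-30a-5p the value was -0.10, with 6 of 6 heat-stressed rats below the control mean.

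miR-21 (the name without an arm) had the largest average difference among the abundant names. Its log2(CPM + 1) was 12.49, 13.45, 11.85, 11.95, 11.77 and 12.40 in heat-stressed rats 297 to 302, against 11.62, 11.56, 11.61 and 11.77 in the controls. Heat-stressed rats 297, 298 and 302 stood highest, while rats 299, 300 and 301 lay close to the controls, and the groups overlapped through rat 301 only. Averages were 12.3 ± 0.629 in heat-stressed and 11.6 ± 0.0926 in control kidneys (SD, n = 6 and 4), a log2 fold change of 0.68 (SE 0.27, 95% interval 0.101 to 1.254). It did not pass (limma, unadjusted p = 0.0248, adjusted p = 0.932; exact two-sided permutation p = 0.0190, unadjusted). Without rat 298 the log2 fold change was 0.45.

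Its arms spread in different rats. miR-21-5p, the arm that is usually the guide strand, was 12.65 at the lowest, 12.75 at the median and 13.50 at the highest in heat-stressed kidneys, against 12.64, 12.63, 12.69 and 12.70 in control kidneys. The highest value was that of rat 302, and the other heat-stressed rats reached at most 12.89. The log2 fold change was 0.21 (SE 0.14), with 5 of 6 heat-stressed kidneys above each control, and it was 0.09 without rat 302.

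miR-21-3p, the passenger arm, was 6.74, 7.63, 6.42, 7.45, 6.76 and 6.66 in heat-stressed rats 297 to 302, against 6.48, 6.55, 6.52 and 6.26 in the controls. Here rats 298 and 300, the libraries with the fewest reads, stood highest, and rat 299 lay within the controls. The log2 fold change was 0.49 (SE 0.22, unadjusted p = 0.0480 from limma). Rat 298 was thus high for miR-21 and miR-21-3p but not for miR-21-5p, while rat 302 was high for miR-21-5p and miR-21 and close to the controls for miR-21-3p. The part of depth in these values was not tested.

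miR-146b-5p had the smallest p-value of all names. It was 7.88, 8.79, 7.76, 7.91, 7.59 and 7.97 in heat-stressed rats 297 to 302, against 7.08, 7.21, 7.65 and 7.73 in the controls. Rat 298 was again the highest, and 5 of 6 heat-stressed kidneys exceeded each control. The means were 7.98 ± 0.419 and 7.42 ± 0.32 (SD, n = 6 heat-stressed and 4 control), a log2 fold change of 0.57 (SE 0.21, 95% interval 0.10 to 1.03). limma gave an unadjusted p of 0.0212 and an adjusted p of 0.932. Without rat 298 the value was 0.40.

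miR-146a-5p, with the same seed (GAGAACU), was 7.82 at the lowest, 8.27 at the median and 8.78 at the highest in heat-stressed kidneys, against 8.29, 8.38, 8.77 and 8.68 in control kidneys. The groups overlapped, and its log2 fold change was -0.23, while that of miR-146a without an arm was -0.22. Without rat 302 these were -0.14 and -0.15. The miR-146 names that share a seed thus had averages of opposite sign, and neither passed the test.

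**Figure D2:**
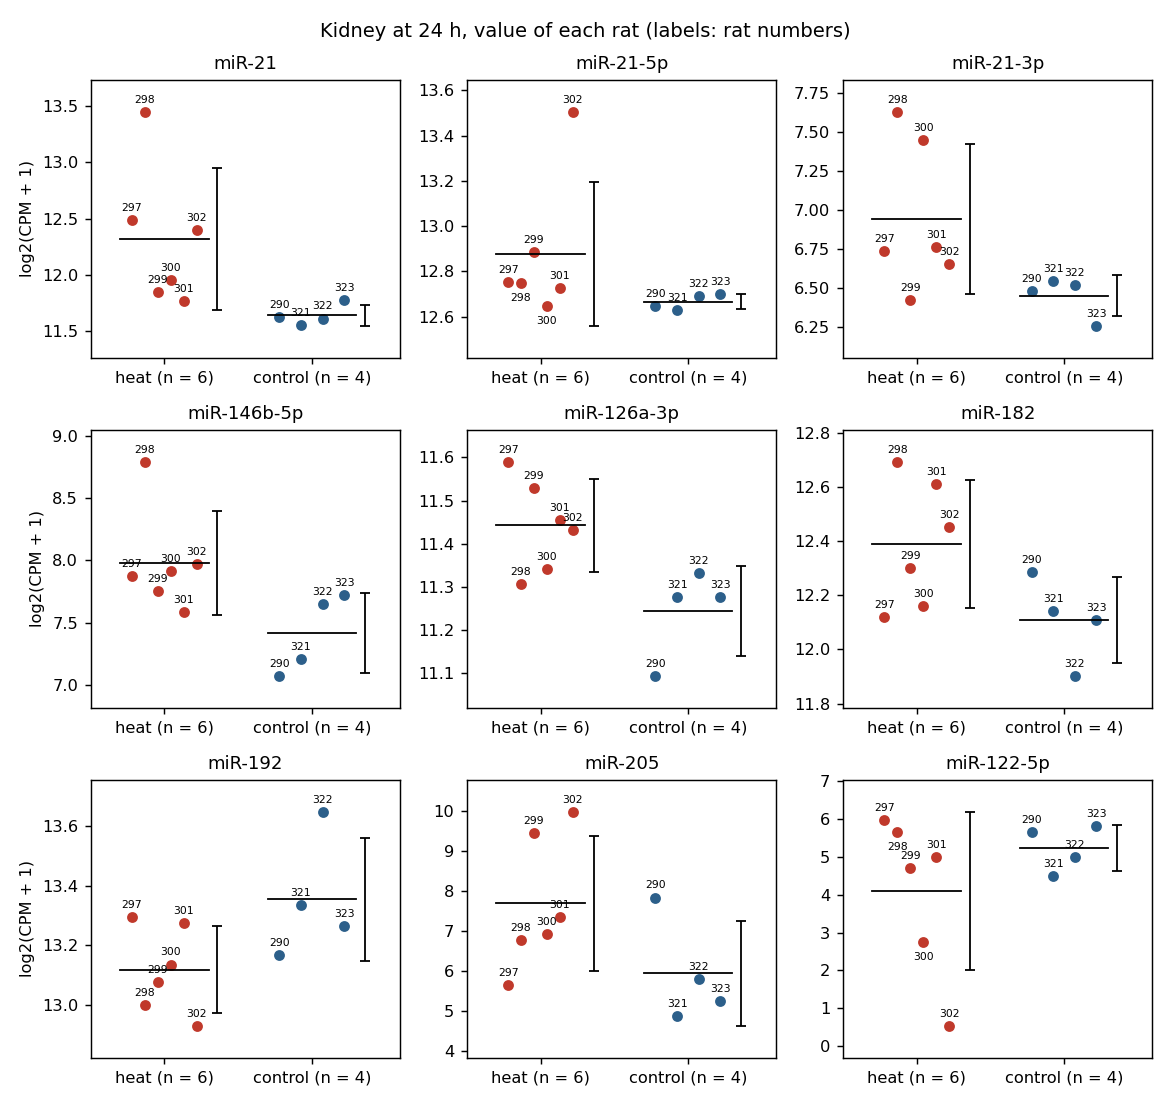
Level of 9 miRNA names in each kidney (y axis, log2(CPM + 1), with a scale of its own in each panel), heat-stressed rats in red and controls in blue, labelled with rat numbers. Horizontal lines are group means and bars ± 1 SD (n = 6 and 4). Rat 298 is the highest for miR-21, miR-21-3p and miR-146b-5p, and rat 302 for miR-21-5p and miR-205, where miR-122-5p is the lowest.

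By the study's histology, no heat-related pathology was seen at 24 h. The kidney injury list joined the miR-21, miR-146 and miR-199a names, 8 of which were tested. None passed (0 of 8), 6 had positive and 2 negative values, and the median log2 fold change was 0.20, against -0.03 over all 175 names. It held 3 of the 6 names at an unadjusted p under 0.05 (3.43% of all names), of which miR-21 and miR-21-3p come from 1 hairpin and miR-146b-5p from another. The summed level of the list was 13140 to 21080 CPM (median 14920) in heat-stressed and 12040 to 12940 CPM (median 12330) in control kidneys. The sums did not overlap, while of the single names none was without overlap (0%). Most of the sum was miR-21-5p (0.77% of reads in heat-stressed and 0.65% in control kidneys) and miR-21 (0.56% and 0.32%). miR-199a-3p and miR-199a, which are known from fibroblasts and other stromal cells, had values of 0.15 and 0.20, or 0.08 for each without control rat 322. Without rats 298 and 302 the median was 0.14, still with 6 positive values. The list was chosen with results of these libraries known, so that the separation of its sums is not a test. Its members miR-155, miR-34a, miR-18a, miR-20a and miR-210 were not analysed here.

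miR-126a-3p, the endothelial miRNA that acts in vessel growth and integrity, had a small difference of 1 direction in all rats. It was 11.31 at the lowest, 11.44 at the median and 11.59 at the highest in heat-stressed kidneys, against 11.09, 11.28, 11.33 and 11.28 in control kidneys. All 6 heat-stressed kidneys exceeded the control mean and 5 exceeded each control. Its log2 fold change was 0.20 (SE 0.08, unadjusted p = 0.0362 and adjusted p = 0.932 from limma). The other arm, miR-126a-5p, took more reads, and its log2 fold change was -0.07, with rat 298 at 12.55, the lowest, and control kidneys between 13.22 and 13.29. Without rat 298 its value was 0.05. The level of the endothelial list as a whole was 9113 to 14860 CPM in heat-stressed and 12350 to 13160 CPM in control kidneys.

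miR-182, a member of a cluster with miR-96 and miR-183 best known from sensory organs, was 12.12, 12.69, 12.30, 12.16, 12.61 and 12.45 in heat-stressed rats 297 to 302, against 12.29, 12.14, 11.90 and 12.11 in the controls. Rats 297 and 300 lay within the controls, and 4 of 6 heat-stressed kidneys exceeded each control. The log2 fold change was 0.28 (SE 0.12, unadjusted p = 0.0439 from limma, adjusted p = 0.932).

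miR-192, a miRNA of the proximal tubule, was the 1 name at an unadjusted p under 0.05 with a lower average. It was 13.29, 13, 13.07, 13.13, 13.28 and 12.93 in heat-stressed rats 297 to 302, against 13.17, 13.33, 13.65 and 13.26 in the controls. Rats 297 and 301 lay within the controls, and control rat 322 stood above all others. The log2 fold change was -0.24 (SE 0.11, unadjusted p = 0.0460 and adjusted p = 0.932 from limma), and -0.14 without control rat 322. The mature arm miR-192-5p had -0.16, or -0.06 without control rat 322, where it was also highest, at 16.33. miR-194-5p, encoded beside miR-192, had -0.18, or -0.08 without rat 298, and miR-194-2 had -0.15, or -0.02 without control rat 322.

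The kidney-enriched list, with miR-10a, miR-10b, miR-192 and miR-194, had 7 tested names. None passed, 3 had positive and 4 negative values, and the median was -0.15. Its miR-10 names lay at 0.03 to 0.04 and its miR-192 and miR-194 names at -0.24 to -0.15, so that the list did not move as 1 group. The median was -0.04 without rat 298, -0.05 without control rat 322, -0.22 without control rat 290 and -0.01 without rats 298 and 302.

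The miR-30 family, which is known from podocytes and tubule cells, had 13 tested names, of which 0 passed. Their values were small but mostly of 1 sign: 12 of 13 were negative, where 57.7% of all names were, also with RLE and trimmed-mean scaling. The values ran from -0.19 (miR-30c-5p) to 0.05 (miR-30a), with a median of -0.12. These names are not 13 separate measurements, since miR-30c-1 and miR-30c-2 differed by at most 0.0008 in any library. Several others are names of 1 miRNA, such as miR-30a, miR-30a-5p and miR-30a-3p. miR-30a-3p, the member with the smallest p-value, was 9.95 at the lowest, 10.06 at the median and 10.36 at the highest in heat-stressed kidneys, against 10.32, 10.30, 10.32 and 10.15 in control kidneys. Only 1 heat-stressed rat was above every control and 4 were below every control. The family median was -0.04 without rat 298, with 11 of 13 negative, and also without rats 298 and 302, with 9 of 13 negative.

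The miR-200 family holds epithelial cells in their state by repressing the Zeb factors, and all 5 of its tested names had positive values, also with RLE and trimmed-mean scaling. They were 0.20 (miR-141-3p), 0.15 (miR-200a-3p), 0.11 (miR-200a), 0.05 (miR-200b-3p) and 0.04 (miR-429), where 42.3% of all names were positive. The summed level was 6169 to 9215 CPM in heat-stressed and 6716 to 7695 CPM in control kidneys, which overlap. The count was 3 of 5 without rat 297 or without rat 302 and 4 of 5 without control rat 322, and without control rat 290 the median was 0.04 in place of 0.11. For miR-141-3p the value was 0.08 without rat 302, and for miR-200a-3p 0.06 without control rat 290. miR-200a and miR-3548 lie on opposite strands of 1 place and differed by at most 0.014 in any library, so that they are not separate measurements.

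miR-205, an epithelial miRNA of skin, bladder and other lining tissue, had the largest average difference of all names. Its log2(CPM + 1) was 5.65, 6.78, 9.46, 6.92, 7.35 and 9.97 in heat-stressed rats 297 to 302, against 7.84, 4.89, 5.81 and 5.26 in the controls. In reads this was 83 to 2231 in heat-stressed and 42 to 235 in control kidneys. Rats 299 and 302 stood far above all others, while the other 4 heat-stressed rats lay below control rat 290, and rat 297 was below the control mean. The log2 fold change was 1.74 (SE 0.81, 95% interval -0.01 to 3.49, unadjusted p = 0.0510 from limma), which did not pass. It was 1.28 without rat 302 and 2.37 without control rat 290.

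The miR-31 names followed the same rats in part. miR-31a-5p, a miRNA of epithelial and immune cells, was 6.10, 6.11, 6.95, 5.71, 5.83 and 7.26 in heat-stressed rats 297 to 302, against 6.60, 5.47, 5.12 and 6.04 in the controls. Rats 299 and 302 were the highest of the heat-stressed rats and control rat 290 the highest of the controls, as for miR-205. The log2 fold change was 0.52 (SE 0.35), with intervals reaching from -0.24 to 1.28, and it was 0.49 for miR-31a and 0.53 for miR-31b. It was 0.29 without control rat 322 and 0.78 without control rat 290.

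miR-122, which is made by hepatocytes, was present in most kidneys at a low level. Reads of miR-122-5p numbered 105, 42, 40, 5, 49 and 1 in heat-stressed rats 297 to 302, against 51, 34, 35 and 62 in the controls. Rat 302, the deepest library, had 1 read and rat 300 had 5, while the other heat-stressed rats lay in or near the range of the controls. For miR-122 without an arm rat 302 had 0 reads, where 3 reads would lie at 1.23 on the log2(CPM + 1) scale. The log2 fold changes were -1.14 (SE 0.89) for miR-122-5p and -1.64 (SE 0.97) for miR-122, or -0.43 and -0.84 without rat 302. The miR-3591 reads, 133, 35, 46, 5, 56 and 0 in heat-stressed and 54, 60, 57 and 71 in control kidneys, were nearly those of miR-122. Since both come from 1 place on opposite strands and had nearly equal reads, their values cannot be taken as independent.

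Blood cell markers had lower averages in heat-stressed kidneys, with the low values in different rats. The tested names were for miR-142 (known from all blood lineages), miR-150 (lymphocytes) and miR-451 (red cells). Negative values had 5 of 5, where 57.7% of all names were negative, with a median of -0.33. Without rat 298 this was 4 of 5 with a median of -0.12, without rat 302 5 of 5 with -0.44, and without both 5 of 5 with -0.16. The names miR-142, miR-142-3p and miR-142-5p belong to 1 hairpin, so that the 5 are not independent. The markers miR-223, miR-144 and miR-486 were not analysed here. miR-451 was 8.46, 6.18, 7.33, 6.70, 5.67 and 6.84 in heat-stressed rats 297 to 302, against 7.02, 7.82, 6.88 and 8.39 in the controls. Rat 297 was the highest of all and rat 301 the lowest, and the log2 fold change was -0.66 (SE 0.46), or -0.98 without rat 297 and -0.38 without control rat 323.

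miR-142-5p was 9.01, 7.41, 9.32, 8.55, 9.20 and 9.22 in heat-stressed rats 297 to 302, against 9.13, 9.27, 9.09 and 9.21 in the controls. Rats 298 and 300 were low and the other heat-stressed rats lay close to the controls, and the log2 fold change was -0.39 (SE 0.31), or -0.12 without rat 298. The summed blood cell markers were 753 to 2029 CPM in heat-stressed and 1601 to 1921 CPM in control kidneys. In rat 298 miR-21 and miR-146b-5p were thus highest where miR-142-5p was lowest, and the part of blood cells in those values was not tested.

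The other lists held smaller differences. The let-7 family, which restrains growth and keeps cells differentiated, had 16 tested names with a median of 0.05, 12 of them positive, 14 with RLE or trimmed-mean scaling, but 6 without rat 298 and 7 without control rat 322. let-7e reached 0.32, or 0.13 without rat 298, with rats 298 and 301 at 6.62 and 6.58 and control kidneys at 4.88 to 5.66. All 3 miR-29 names, which repress collagens, had negative values between -0.13 and -0.09, and all 3 were positive without rats 298 and 302. The smooth muscle list (miR-143 and miR-145) had 3 of 4 positive values with a median of 0.08, and the miR-221 and miR-222 list 0.13. These were 0.03 without control rat 321 and 0.01 without control rat 322. The miR-26, miR-181, miR-125, miR-23, miR-22, miR-320 and miR-17-92 lists had medians between -0.07 and 0.08, as had the miR-322 and striated muscle lists. In these lists 0 names passed, and 58 tested names stood in no list.

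**Figure D3:**
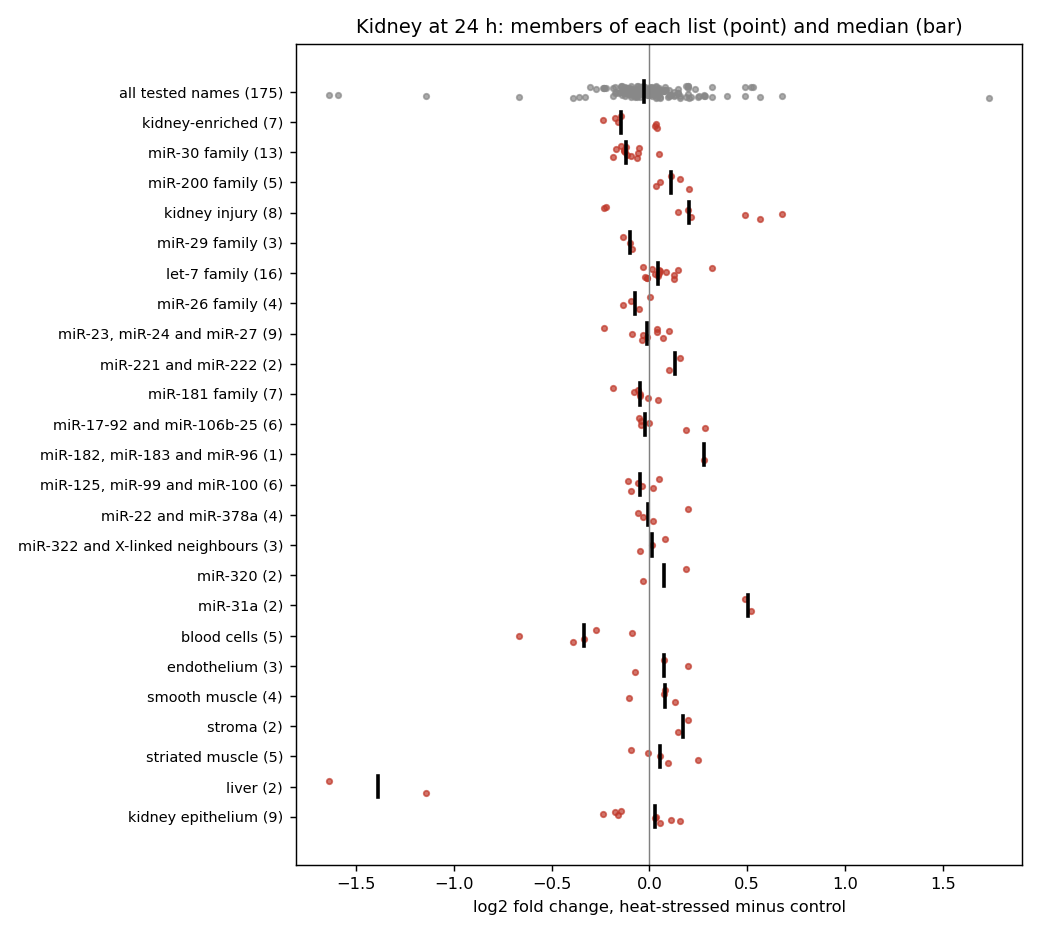
Log2 fold change (x axis, heat-stressed minus control) of each tested member of the lists (points) with the list median (bar), and of all 175 tested names in grey at the top. Numbers in parentheses are the tested names of a list. The medians stay between -0.33 and 0.50 except for the liver list of 2 names, both of which had 1 read or none in rat 302.

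By seed, the 102 tested names with a RefSeq sequence fell into 75 seeds, of which 15 were shared by 2 or more names. The let-7 seed GAGGUAG joined 8 names with values from -0.02 to 0.13, and the miR-16 seed AGCAGCA 4 names from -0.09 to 0.03. The miR-30 seed GUAAACA joined 3 arms with values from -0.19 to -0.05, and the miR-34 seed GGCAGUG joined miR-34c-5p at 0.40 and miR-34b-5p at 0.28, both known as targets of p53. miR-103-3p and miR-107-3p, which share GCAGCAU and differ in few bases, had -0.15 and -0.14. Names with near-identical sequence, such as these, may share reads. Among all names, 12 pairs differed by at most 0.1 in every library and cannot be taken as separate measurements.

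Heat-stressed kidneys varied more between rats than control kidneys did. The SD over rats was larger in heat-stressed kidneys for 135 of 175 names, with a median SD of 0.213 in heat-stressed and 0.132 in control kidneys. As 1 value per library, the mean distance to its own group mean over all tested names was 0.216, 0.305, 0.172, 0.202, 0.175 and 0.277 in heat-stressed rats 297 to 302, against 0.153, 0.115, 0.129 and 0.115 in the controls. Every heat-stressed kidney lay farther from its group mean than any control. The group means were 0.224 ± 0.0548 and 0.128 ± 0.0179 (SD, n = 6 heat-stressed and 4 control), a difference of 0.0965 (exact two-sided permutation p = 0.00952, the smallest that the 210 splits allow). The distances were held fixed in the permutation, so that the p is not strictly exact. Allowing for the size of the groups, the difference was 0.0981. Without rats 298 and 302 it was 0.0351 and no longer passed (exact permutation p = 0.114). Leaving out 1 rat at a time it was 0.0706 to 0.1163.

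Rats 298 and 302 had the most names far from the rest of their group. Compared with the mean of the other rats of its group, 11 names differed by over 2-fold in rat 298 and 7 in rat 302, against 2 to 5 in the other heat-stressed and 0 to 2 in the control rats. Of these, 4 names were shared, each with opposite signs. miR-205 was -1.09 from the mean of the others in rat 298 and 2.74 in rat 302, miR-122 was 1.36 and -4.80, miR-122-5p 1.86 and -4.28, and miR-3591 1.56 and -4.91. The mean that rat 298 was compared with includes rat 302, and the other way round. From the control mean, rat 298 lay at 0.83 for miR-205, -0.51 for miR-122, 0.41 for miR-122-5p and -0.29 for miR-3591, all under 2-fold. Rat 302 lay at 4.02, -5.64, -4.71 and -5.68 from it. miR-122 was also past 2-fold from the other heat-stressed rats in rats 297 (2.77), 299 (1.08), 300 (-1.83) and 301 (1.42). Of the names past 2-fold in rat 298 but not in rat 302, miR-21 (1.36) and let-7e (1.14) lay above the mean of the other heat-stressed rats. miR-142-5p (-1.65), miR-127-3p (-1.34, an imprinted miRNA), miR-133c (-1.32), miR-133a (-1.19) and miR-142 (-1.15) lay below them. In rat 302 but not in rat 298 it was the miR-31 names, with miR-31a-5p at 1.12. The numbers of reads, 851546 in rat 298 and 2224067 in rat 302, are at opposite ends of the range, and the part of depth in the spread was not tested.

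**Figure D4:**
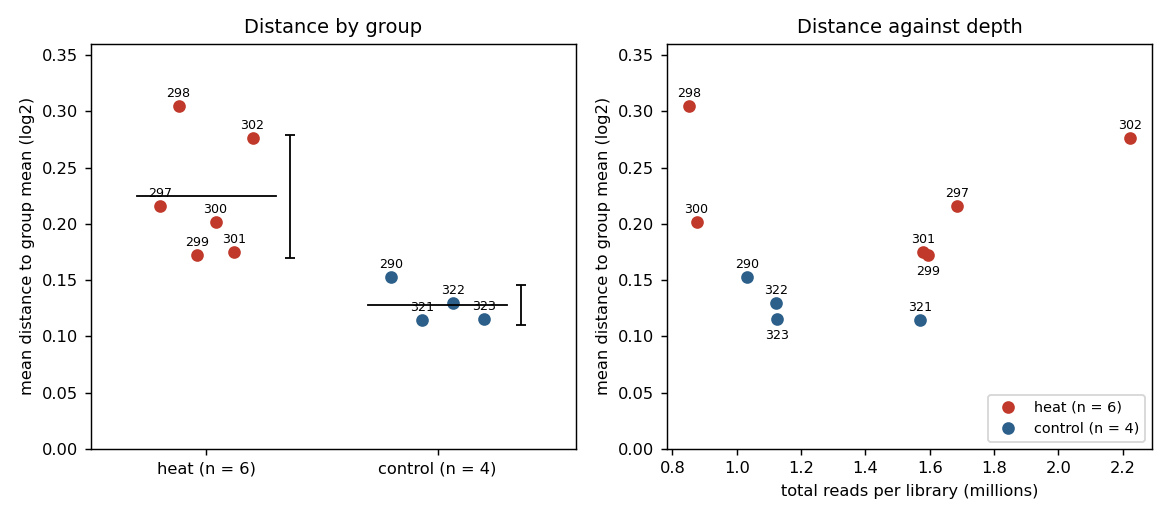
Left, mean distance of each library to its group mean over the 175 tested names (y axis, log2 units), heat-stressed (red) and control (blue), with group means (lines) and ± 1 SD (bars). Right, the same distances against total reads. All 6 heat-stressed kidneys lie above the 4 controls, with rat 298 at the low and rat 302 at the high end of depth.

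The heart at 24 h, of the same 6 heat-stressed rats and of 6 controls, gave 0 of 161 names (limma, with or without the cutoff). At an unadjusted p under 0.05 it held 3 (1.86%). The 4 control rats with a kidney were among these 6 controls, and the others had no kidney library and so no pair. The kidney effect minus the heart effect was tested over 152 names, and limma called 0 (0%), with 2 at an unadjusted p under 0.05 (1.32%). With the rat as a block, pairing kidney and heart of 1 animal, it also called 0, with 1 at an unadjusted p under 0.05 (0.658%). The names with the largest kidney values among the injury miRNA also had positive values in the heart. miR-21 had 0.68 in the kidney and 0.45 in the heart, a difference of 0.23 (95% interval -0.52 to 0.97). miR-146b-5p had 0.57 in the kidney and 0.63 in the heart, and miR-21-3p 0.49 in the kidney and 0.56 in the heart. These intervals are wide, so that a difference past the cutoff cannot be told from none. The miR-146a names of the same list had opposite signs in the 2 organs. miR-146a had -0.22 in the kidney and 0.24 in the heart, a difference of -0.466 (95% interval -0.932 to -0.00035). For miR-146a-5p the values were -0.23 in the kidney and 0.23 in the heart. Without the block, miR-146a and miR-34c-5p (0.40 in the kidney, -0.38 in the heart) were the 2 names at an unadjusted p under 0.05. Kidney and heart libraries were sequenced in separate lanes, by the study's methods.

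Rat by rat, miR-21-3p was high in both organs of the same animals, an observation made after the values were seen. In the heart it was 4.91, 6.62, 3.87, 6.38, 4.34 and 5.45 in heat-stressed rats 297 to 302, against 4.52 to 4.80 in the 6 controls. Rats 298 and 300 were the highest in the heart as in the kidney, and rat 299 the lowest in both. miR-21 without an arm was also highest in rat 298 in both organs, at 12.32 in the heart and 13.45 in the kidney. Over all tested names, the correlation within rats was -0.0496 in the block fit. Heart libraries had 442642 to 879244 reads in heat-stressed and 323526 to 708449 in control rats. The lowest miR-21-3p values in the heart thus rest on few reads, and the part of counting error in the order of rats was not tested.

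At T_c,max the kidney of other rats, 5 heat-stressed and 5 control, was set beside that at 24 h. Fitted on its own groups it gave 1 of 171 names (0.585%) with the cutoff and 49 (28.7%) without it, or 63 (36.8%) at an unadjusted p under 0.05. The heat effect at 24 h minus that at T_c,max gave 0 of 175 names (limma, 0% with and without the cutoff), and the smallest adjusted p was 0.0770. With no adjustment, 30 names (17.1%) had a p under 0.05. miR-21-3p led the order, with 0.49 at 24 h and -0.65 at T_c,max, a difference of 1.14 (SE 0.29). miR-146b-5p had 0.57 at 24 h and -0.60 at T_c,max, a difference of 1.17 (SE 0.37, adjusted p = 0.135 from limma). For miR-126a-5p the values were -0.07 at 24 h and -0.81 at T_c,max, and for miR-93-5p, a relative of miR-17, -0.04 and -0.59. These differences did not pass. Reads at T_c,max were 355221 to 1247746 in heat-stressed and 680598 to 1329682 in control kidneys, and the part of depth was not tested.

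At 48 h, with 4 heat-stressed and 5 control kidneys, the heat effect at 24 h minus that at 48 h gave 0 of 175 names (limma, 0%), with 10 at an unadjusted p under 0.05 (5.71%). The titles give these 9 kidneys as 48 h while the table's own time column lists 0 for all 9, and the titles were followed. By the study's histology some rats at 48 h had heart and kidney injury, and the labels do not say which, so that injured and uninjured rats may be mixed here. Rat 307 stands far apart at 48 h, and without it the counts were 0 and 11 (6.29%). Fitted on its own groups, 48 h gave 0 of 173 names (9 at an unadjusted p under 0.05, 5.2%). Without rat 307 it gave 1 with no cutoff (0.578%) and 17 at an unadjusted p under 0.05 (9.83%). miR-205 differed most in size, with 1.74 at 24 h and -2.49 at 48 h, a difference of 4.23 (SE 1.33, adjusted p = 0.264 from limma), or 4.28 without rat 307. miR-31a-5p had 0.52 at 24 h and -1.97 at 48 h, or -1.247 there without rat 307. miR-21 without an arm had 0.68 at both 24 and 48 h, a difference of -0.003 with a 95% interval of -0.86 to 0.85. Its arms did not have equal values. miR-21-5p had 0.21 at 24 h and -0.305 at 48 h, or 0.066 at 48 h without rat 307. miR-21-3p had 0.49 at 24 h and -0.316 at 48 h, or 0.847 at 48 h without rat 307. Neither pair of time points shares rats, and none of these differences passed.

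**Figure D5:**
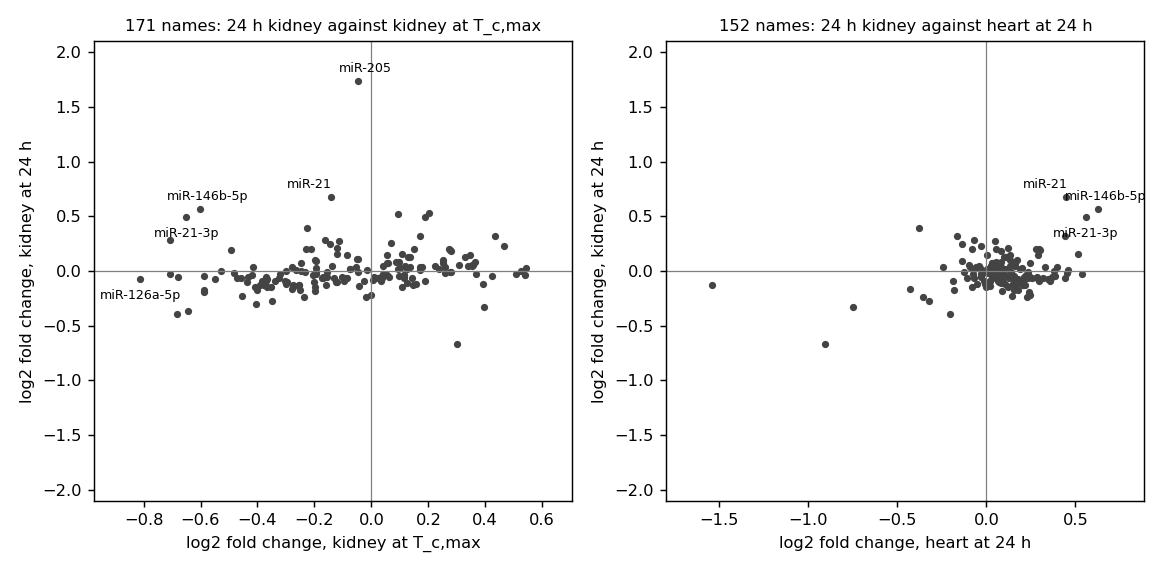
Log2 fold change of heat-stressed minus control in the kidney at 24 h (y axis) against that in the kidney at T_c,max (left, 171 names) and in the heart at 24 h (right, 152 names). Each point is a miRNA name. miR-205 stands alone at the top of the left panel, and miR-21, miR-146b-5p and miR-21-3p lie to the right of 0 for the heart and to the left of 0 for the kidney at T_c,max.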

How the data were processed

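Small RNA libraries (TruSeq) of 10 kidneys at 24 h were compared, with kidneys at T_c,max and 48 h and hearts at 24 h beside them. Lung libraries were not analysed here. The authors trimmed reads with cutadapt 2.6, removed low-complexity reads, collapsed identical ones and matched them without mismatch to rat miRNA of miRBase. They deposited log2(CPM + 1) values for 185 names, and nothing in the sources used here says whether strand was kept when reads were matched. The libraries were sequenced in a lane for each tissue. The table's 3 label columns were not used for grouping, since its time column goes against the titles of the kidneys at 48 h, and 0 columns of values were left over.

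Each library's low values were multiples of 1 step, the worth of 1 read, for 92 of 92 values in the 10 kidneys within 0.05 of a read. The step gave total reads (851546 to 2224067) and a filter, by which a name was kept where every library of either group had 5 reads or more. This left 175 names. Reads are not molecules, and a floor of 3 reads covers counting error only, while libraries of 1 group differed by more than that.

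The authors tested against a fold change of 25% with edgeR. The values here are log2, so limma 3.58.1 in R 4.3.3 (treat against the same cutoff, trended spread, Benjamini-Hochberg over all tested names) took its place, on the compared groups alone. The cutoff is 0.3219 on the log2 scale. Differences between time points or organs were tested as interactions. Exact two-sided permutation tests used all 210 splits of the rats. Fold changes are on the log2(CPM + 1) scale, which understates those of low names. Each library came from a rat with its own number, and a p-value measures the spread between these rats. Kidney and heart of 1 animal share a rat number, and the correlation within rats was -0.0496 in the block fit.

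Named miRNA were the 10 with the smallest p in each direction, the 10 most abundant, and the leading members of each list. let-7e, miR-127-3p, miR-133c, miR-31a, miR-31b, miR-34b-5p, miR-93-5p, miR-3548 and the members named singly within lists were added after their values were seen. The comparison, the names and the lists were chosen with earlier results of these data known. Alternatives were no filter, no cutoff, all kidney groups together, log2(CPM + 5), log2(CPM + 0.5), RLE and trimmed-mean scaling, voom on the recovered reads, the rat as a block, mature arms alone and each rat left out. Chosen after seeing the data were distances scaled for group size and leaving out rats 298 and 302 together. The fits were tested on simulated data. Scripts ran in Python 3.11.15 with pandas 2.3.3, scipy 1.17.1, numpy 2.4.6 and, for figures, matplotlib 3.10.9.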

Additional observations from a re-analysis of the deposited data

Results flagged for a closer look

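In 6 of 108 groups examined (5.56%), for 53 miRNA names, 1 kidney lay far from the others of its group by Dixon's criterion, and chance flags about 1 group in 20. Rat 298 was the highest of the heat-stressed kidneys for miR-146b-5p, at 8.79, and the lowest for miR-191a-5p, at 12.78, and for miR-27b-3p, at 13.84. Rat 302 was the highest for miR-21-5p, at 13.5, and the lowest for miR-107-3p, at 9.976. Among the controls rat 323 was the lowest for miR-30a-3p, at 10.15. Of the 6, 3 fell on rat 298, 2 on rat 302 and 1 on rat 323.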

How the results depend on the processing

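The count of names past the test, 0, was 0 with each alternative run. Of 953 values of named miRNA under an alternative, 924 kept their sign and 29 did not. The 6 names at an unadjusted p under 0.05 became 1 with all kidney groups together, 3 with voom, 3 with mature arms alone, 3 without rats 298 and 302, and 0 (without control rat 321) to 9 (without control rat 290) with 1 rat left out, 2 without control rat 322 and 3 without control rat 323. The 160 names within a 2-fold interval became 101 with all kidney groups together and 98 of 102 with mature arms alone, where fewer names were tested, and 155 to 165 with 1 rat left out. The difference in distance was 0.0351 without rats 298 and 302. Among the named miRNA with values near 0, miR-499-5p turned to 0.0108 with RLE and 0.0078 with trimmed-mean scaling. With 1 rat left out the sign turned for miR-10a-5p (-0.0317 to 0.06), miR-22-3p (-0.0444 to 0.0547), miR-26a-5p (-0.1473 to 0.0457), let-7f-5p (-0.1033 to 0.04), miR-429 (-0.0312 to 0.0806), miR-27b-3p (-0.0639 to 0.0195), miR-181a-5p (-0.0116 to 0.104), miR-92a-1 (-0.0834 to 0.0206), miR-125a-5p (-0.0405 to 0.081), miR-351-5p (-0.0444 to 0.0775), miR-126a-5p (-0.1328 to 0.0506) and miR-499-5p (-0.1364 to 0.0861). The causes were not tested.

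The rat as a block, pairing kidney and heart of 1 animal, left the kidney minus heart count at 0 (correlation -0.0496). No paired analysis was possible because heat-stressed and control kidneys share no rat numbers. The wide intervals of miR-205 and miR-122 go with a large spread between rats. Depth limits names of few reads. For miR-122, rat 302, the deepest library, had 0 reads, which allow up to 3, while rat 298, the shallowest, had 29.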
